A study of Mus musculus with 6 samples.

Results

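The 52 genes described here encode the ligands, receptors, intracellular relays, antagonists and transcription factors of the Wnt pathway. They were taken by name from a list and matched to the 55401 gene identifiers of the count tables. The choice set no threshold on a measured value, but the list was drawn up with earlier results of these data known. All 52 were found, and all 52 passed the filter on low counts that left 19969 genes for testing. They comprise 9 Wnt ligands, 2 secretion factors, 10 Frizzled receptors, 5 co-receptors, 4 genes of receptor turnover, 3 Dishevelled genes, 7 genes of β-catenin and its destruction complex, 6 secreted antagonists, 2 naked cuticle genes and 4 TCF/LEF transcription factors.

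RNA was sequenced from the dorsal hippocampus of 6 mice, 3 given Control-ASO and 3 given Snhg11-ASO. All were male wild-type (WT) animals of 4 months, littermates of Ts65Dn mice, a trisomic model of Down syndrome, and so none of them carried the trisomy. Antisense oligonucleotides (ASOs) are short modified nucleic acids, and Snhg11-ASO is a gapmer that directs RNase H to exon 5 of the long noncoding RNA Snhg11, while Control-ASO has a scrambled sequence. Each mouse received 50 µg per hemisphere by bilateral injection into the dorsal dentate gyrus, and tissue was taken 3 days later. The labels give the genotype of the first group as WT and of the second as Snhg11 KD, which here stands for the injected ASO. The injection was aimed at the dentate gyrus, whereas the RNA came from the whole dorsal hippocampus with its other fields and glia. Each sample is a separate mouse according to the study's methods.

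Wnt proteins are lipid-modified secreted signals that bind Frizzled receptors together with a co-receptor. In the β-catenin branch the receptors act through Dishevelled to stop a destruction complex from marking β-catenin for degradation, so that β-catenin enters the nucleus and acts with TCF/LEF factors on target genes. In the hippocampus the pathway is known for its part in adult neurogenesis in the dentate gyrus, in dendrite growth and at synapses. Cancer studies have linked Snhg11 to Wnt/β-catenin signalling, which is the question these genes bear on here. In its discussion of the knockdown, the paper states that it saw no significant deregulation of that pathway.

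TCF/LEF factors recognise a short core sequence, searched here on either strand as the letters CTTTG followed by a pair of bases that are each A or T. Promoter windows of RefSeq (GRCm38.p6), 300 bases that reach 50 bases past an annotated start, were at hand for 35 of the 52 genes, in 44 windows. Of these, 6 windows (13.6%) in 6 genes held such a match, against 5544 of 32851 windows (16.9%) over all genes. The 6 genes were Wnt3, Wnt5b, Fzd7, Gsk3a, Tcf7l2 and Lef1. Windows are shown for Wnt3 and Wif1, a ligand and a Wnt-binding antagonist that were among the members with the lowest p described below, and for Axin2, which is widely used as a transcriptional readout of β-catenin signalling. They lie at chr11:103773925-103774224, chr10:121033754-121034053 and chr11:108920099-108920398, all on the plus strand, and capitals mark the match.
Wnt3: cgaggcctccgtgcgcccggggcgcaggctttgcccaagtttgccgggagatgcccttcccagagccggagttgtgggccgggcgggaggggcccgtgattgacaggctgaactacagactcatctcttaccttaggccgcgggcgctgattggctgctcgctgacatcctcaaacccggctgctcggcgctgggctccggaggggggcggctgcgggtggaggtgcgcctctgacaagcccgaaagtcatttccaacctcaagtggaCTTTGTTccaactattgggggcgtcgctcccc
Wif1: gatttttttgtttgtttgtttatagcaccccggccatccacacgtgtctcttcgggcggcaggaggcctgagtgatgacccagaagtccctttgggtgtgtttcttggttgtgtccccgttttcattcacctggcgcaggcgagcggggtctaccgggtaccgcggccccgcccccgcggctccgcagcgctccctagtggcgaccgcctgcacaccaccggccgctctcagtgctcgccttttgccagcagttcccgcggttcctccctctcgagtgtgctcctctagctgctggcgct
Axin2: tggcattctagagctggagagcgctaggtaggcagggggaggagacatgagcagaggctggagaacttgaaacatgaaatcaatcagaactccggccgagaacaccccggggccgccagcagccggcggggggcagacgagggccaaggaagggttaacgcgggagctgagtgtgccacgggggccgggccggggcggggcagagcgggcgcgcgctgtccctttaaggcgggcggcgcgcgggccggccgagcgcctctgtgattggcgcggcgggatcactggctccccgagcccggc
The match in Wnt3 was CTTTGTT, starting 18 bases after the start. The windows of Wif1 and Axin2 held no match, which says only that these letters are not in those windows. A match in letters is a description and was not tested as a binding site.

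Snhg11 itself was counted at 550.8, 435.8 and 208.6 CPM (counts per 1000000, scaled between libraries) in replicates 1, 2 and 3 of Control-ASO. In the same order, the Snhg11-ASO mice had 139, 65.4 and 69.4 CPM, so that the groups did not overlap. The means were 398.4 ± 174.1 and 91.3 ± 41.4 CPM (SD, n = 3 each; p = 0.1 in an exact permutation test, two-sided, which is the smallest that 3 against 3 allow). The log2 fold change was -2.13 (SE 0.43), with an unadjusted p = 0.00172 and an adjusted p = 0.395 (edgeR, quasi-likelihood test, Benjamini-Hochberg). The libraries held 28951250 to 43997537 counts on genes, of which the 52 members took 70489 to 112329, or 0.243% to 0.264%. Snhg11-ASO replicate 1 stood apart from the other 5 libraries, with Spearman correlations across genes of 0.955 to 0.959 to them, against 0.979 to 0.991 for all other pairs. Values without that library are therefore given beside the results it bears on. The tissue held the markers of granule cells (summed level 368.5 to 506.1 CPM) and CA1 neurons (273.2 to 357.2 CPM) in every sample. Markers of the choroid plexus, a secretory tissue of the ventricle next to the hippocampus, varied widely between samples, and the groups overlapped. All 13 had a lower mean in Snhg11-ASO mice (median log2 fold change -0.98), none with an unadjusted p under 0.05 in edgeR. The 13 genes summed to 3026, 197.9 and 2131 CPM in the Control-ASO and to 2148, 378.5 and 240.7 CPM in the Snhg11-ASO mice, with none at 0. The 10 markers of meningeal fibroblasts summed to 108.3, 32.4 and 114.6 CPM in the Control-ASO and to 57.9, 47.6 and 58.0 CPM in the Snhg11-ASO mice, with 1 marker at 0 in at least 1 sample. All 10 had a lower mean in Snhg11-ASO mice (median log2 fold change -0.52). The 7 interneuron markers summed to 464.8, 434.8 and 419.4 CPM in the Control-ASO mice. In the Snhg11-ASO mice they summed to 377.2, 349.2 and 396.6 CPM, so these sums did not overlap. All 7 had a lower mean (median log2 fold change -0.26), 2 of them at an unadjusted p under 0.05 in edgeR (28.6%, against 8.11% of all genes). A bearing of this on the 52 members was not tested.

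Levels of the 52 genes differed widely. On a scale that allows genes to be compared, CPM per kilobase of exon (RPKM), the Control-ASO mean was above 10 for 9 members and below 1 for 19. Dkk3 (79.7 ± 14.0, SD, n = 3) and Ctnnb1, which encodes β-catenin (75.0 ± 4.02), led the order, and their ranges over the Control-ASO mice overlapped. Csnk1a1 (30.6), Apc (28.8) and Gsk3a (26.5), all of the destruction complex, followed, and the range of Csnk1a1 (29.1 to 32.5) overlapped that of Apc (28.3 to 29.3). The lowest levels were those of Lgr5 (0.119), Ror2 (0.125), Dkk2 (0.157) and Fzd10 (0.165). The ligands and Frizzled receptors stood between 0.165 and 5.14 RPKM, with Fzd3 as the exception at 15.2.

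**Figure D1:**
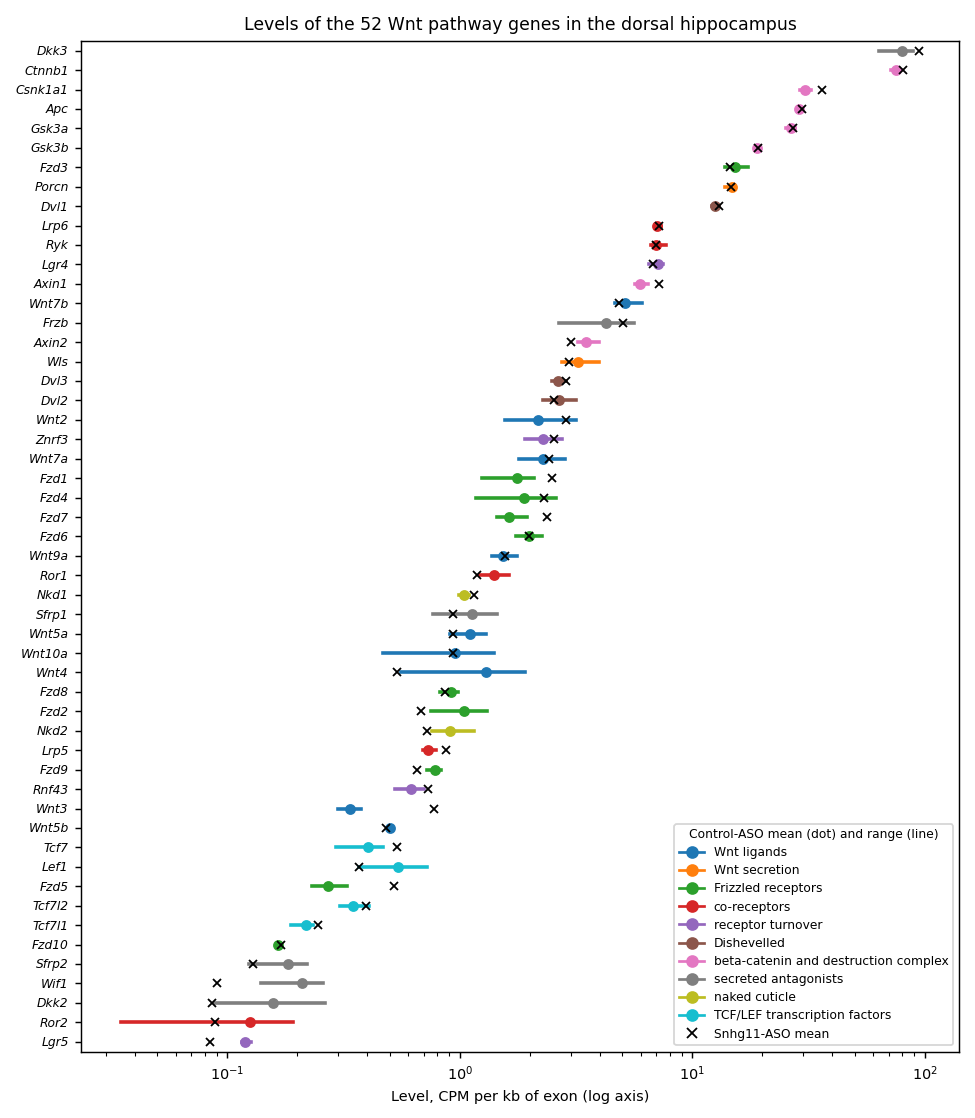
Levels of the 52 Wnt pathway genes on a log axis in CPM per kilobase of exon, ordered by the mean over all 6 samples. Dots and lines give the mean and range of the 3 Control-ASO mice, coloured by role, and crosses give the Snhg11-ASO mean. Dkk3 and Ctnnb1 lie near 80 and 75.0, and Lgr5 lies lowest at 0.119.

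No member passed the threshold between the groups. At an adjusted p under 0.05, the quasi-likelihood test of edgeR, with Benjamini-Hochberg adjustment, called 0 of the 52 members and 0 of the 19969 genes (0%), and adjusted p ranged from 0.527 to 0.999 over the members. DESeq2 called 258 genes (1.29%) and 0 of the members, 4 of which had no adjusted p there. At an unadjusted p under 0.05 edgeR had 3 of the 52 members, Wnt3 and Csnk1a1 higher and Wif1 lower in Snhg11-ASO mice, which is 5.77% against 8.11% of all genes. DESeq2 had 4, which were the same 3 and Wnt4. That is 7.69% of the members, under the share of all genes, where 1831 of 19969 passed. Every Snhg11-ASO mouse lay above, or every one below, all Control-ASO mice for 5 members, Wnt3 and Csnk1a1 higher and Ror1, Lgr5 and Wif1 lower, which is 9.62% against 15.4% of all genes. Over all 6 mice the shares of the members were thus under those of all genes.

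These counts moved with single libraries. Without Control-ASO replicate 1, 2 or 3 the count at an unadjusted p under 0.05 in edgeR was 1, 6 and 0, which is 1.92%, 11.5% and 0% of the members against 4.36%, 8.07% and 4.62% of all genes. Without Snhg11-ASO replicate 1, 2 or 3 it was 4, 1 and 6, or 7.69%, 1.92% and 11.5% against 9.94%, 8.54% and 8.29%. The share of the members was thus over that of all genes without Control-ASO replicate 2 or Snhg11-ASO replicate 3, and under it without each of the others. With the replicate number as a block it was 6 (11.5%), namely Wnt3, Wnt4, Fzd1, Fzd7, Dkk3 and Wif1, against 8.59% of all genes. The count of separated members was 16 (30.8%) without Control-ASO replicate 2 or Snhg11-ASO replicate 3, and 9 (17.3%) when any of the other libraries was left out, while the share of all genes was then 22.7% to 28.3%.

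As a set the members were centred on no difference. Of the 52, 24 had a lower and 28 a higher mean, and the median log2 fold change was 0.01, as for all genes tested (0.01). The median size of the difference was 0.23 on the log2 scale, against 0.18 for all genes. The 95% interval lay within a doubling or halving (log2 within ±1) for 34 members (65.4%), as for 65.1% of all genes, so a doubling or halving is outside the interval of those and not of the others. The median of the members against the Control-ASO mean was -0.03, 0.02 and -0.07 in the 3 Snhg11-ASO mice. Spread was wider among Snhg11-ASO mice for 33 of the 52 members (63.5%), against 66.3% of all genes. Snhg11-ASO replicate 1 held the highest value of all 6 samples for 20 members and the lowest for 17, together 71.2%, against 65.8% of all genes, and the other libraries held an extreme value for 9 to 19 members each. Since the RNA came from bulk tissue, fewer cells of a type and less RNA per cell cannot be told apart in any of these values.

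**Figure D2:**
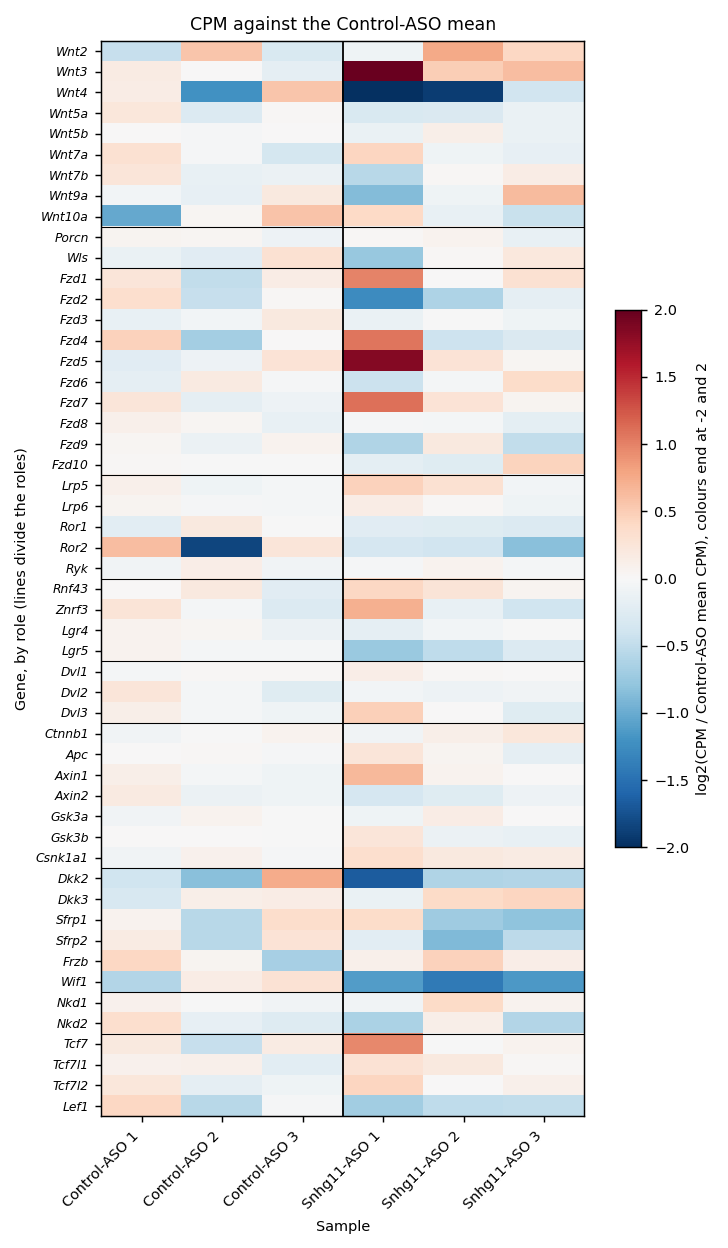
Level of each Wnt pathway gene (rows, by role) in each sample (columns), as the log2 ratio of its CPM to the Control-ASO mean, with colours ending at -2 and 2. Snhg11-ASO replicate 1 holds the highest value for 20 and the lowest for 17 of the 52 genes, and no role has 1 colour across the 3 Snhg11-ASO columns.

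Among the 9 ligands, 5 had a lower and 4 a higher mean in Snhg11-ASO mice, with a median log2 fold change of -0.03. Wnt7b, a ligand known for its part in dendrite growth, was the most abundant at 5.14 ± 0.809 RPKM (SD, n = 3) in Control-ASO mice. Its gene lies on the minus strand of chromosome 15, from 85535437 to 85582473 in GRCm38. Wnt7b had 29.7, 22.7 and 23.1 CPM in the Control-ASO mice and 17.2, 25.7 and 27.9 CPM in the Snhg11-ASO mice. The lowest of the 6 values was in the Snhg11-ASO group and the highest in the Control-ASO group, and the other Control-ASO values lay below the other Snhg11-ASO values. The log2 fold change was -0.09 (SE 0.21, 95% interval -0.59 to 0.40, unadjusted p = 0.673 in edgeR), and 0.09 without Snhg11-ASO replicate 1. Wnt5a, which acts mainly in branches that do not use β-catenin, had 10.1, 7.13 and 8.76 CPM against 7.03, 7.11 and 7.88 CPM. The groups overlapped, and the log2 fold change was -0.24 (SE 0.17, interval -0.65 to 0.18, unadjusted p = 0.215 in edgeR).

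Wnt3, a ligand that supports the production of new granule neurons in the adult dentate gyrus, was the ligand with the lowest p. The gene (ENSMUSG00000000125) spans chromosome 11 from 103774150 to 103817957 on the plus strand, and its promoter window is shown above. The Control-ASO mice had 1.16, 1.04 and 0.920 CPM, from 31 to 35 counts each. In the Snhg11-ASO mice it was counted at 4.09, 1.46 and 1.60 CPM, from 156, 61 and 70 counts. All Snhg11-ASO mice lay above all Control-ASO mice, and replicate 1 lay far above the other two of its group. The log2 fold change was 1.19 (SE 0.45, interval 0.14 to 2.25, unadjusted p = 0.0314, adjusted p = 0.577 in edgeR's test with Benjamini-Hochberg adjustment). Without Snhg11-ASO replicate 1 it was 0.56 (unadjusted p = 0.0475 in edgeR and 0.143 in DESeq2). Leaving out any of the Control-ASO mice kept its direction, with an unadjusted edgeR p of 0.0609 to 0.0898. Wnt3 was among the 6 members with over 10% of their reads on the opposite strand, which the counts leave out.

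Wnt4 had the largest difference of the ligands, in the other direction. Its gene lies on chromosome 4, plus strand, from 137277489 to 137299726. Its values were 6.05, 2.35 and 7.99 CPM in the Control-ASO and 1.10, 1.46 and 4.21 CPM in the Snhg11-ASO mice. Control-ASO replicate 2 was low and Snhg11-ASO replicate 3 was high for its group, so that the groups overlapped. The log2 fold change was -1.27 (SE 0.62, interval -2.74 to 0.20, unadjusted p = 0.0810, adjusted p = 0.660 in edgeR with Benjamini-Hochberg adjustment). Pairing the samples by replicate number gave -1.33 (unadjusted p = 0.0182). Without Snhg11-ASO replicate 3 it was -2.09, where DESeq2 gave an adjusted p of 0.0197 and edgeR an unadjusted p of 0.00930. Without Control-ASO replicate 3 it was -0.89 (unadjusted p = 0.251). The summed markers of meningeal fibroblasts, given above, were also high in Control-ASO replicates 1 and 3 and low in Control-ASO replicate 2 and in all Snhg11-ASO mice, and their part in the difference was not tested. With the choroid plexus level as a term of the model, added after seeing the data, the log2 fold change was -1.18 (unadjusted p = 0.192). The other 5 ligands had Control-ASO means of 0.499 (Wnt5b) to 2.28 RPKM (Wnt7a). Their log2 fold changes ran from -0.04 for Wnt5b to 0.40 for Wnt2, and Wnt7a, Wnt9a and Wnt10a had 0.08, 0.02 and -0.03.

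The machinery of secretion differed little. Porcn, the enzyme that attaches the lipid to Wnt proteins, stood at 14.8 ± 0.814 RPKM (SD, n = 3) in Control-ASO mice. Its levels were 45.9, 45.7 and 41.5 CPM in the Control-ASO and 45.1, 46.7 and 40.1 CPM in the Snhg11-ASO mice, with values of the groups interleaved. The difference (log2) was -0.01 (SE 0.10, interval -0.25 to 0.23, unadjusted p = 0.911 in edgeR). Wls, the carrier that takes Wnt proteins to the cell surface, had 25.8, 24.2 and 34.8 CPM against 16.8, 28.7 and 32.7 CPM. Snhg11-ASO replicate 1 was the lowest of the 6, and the log2 fold change was -0.12 (SE 0.26, interval -0.74 to 0.51, unadjusted p = 0.674 in edgeR), or 0.12 without that library.

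None of the 10 Frizzled receptors had an unadjusted p under 0.05 in the edgeR comparison of all samples or groups that were apart, and 5 had a lower and 5 a higher mean (median log2 fold change 0.02). Fzd3, known for its part in axon guidance and planar polarity, was by far the most abundant at 15.2 ± 1.89 RPKM, and the next, Fzd6, had 1.98 ± 0.249. Fzd3 was counted at 176.1, 186.8 and 222.3 CPM in the Control-ASO and at 178.1, 194.1 and 183.2 CPM in the Snhg11-ASO mice. The Snhg11-ASO values all lay within the Control-ASO range, and the log2 fold change was -0.08 (SE 0.11, interval -0.33 to 0.18, unadjusted p = 0.513 in edgeR). Fzd5 had the largest difference of the family. The values of Fzd5 were 1.60, 1.75 and 2.26 CPM in the Control-ASO and 6.66, 2.27 and 1.92 CPM in the Snhg11-ASO mice. The high value came from replicate 1, and the log2 fold change of 0.95 (SE 0.50, interval -0.23 to 2.13, unadjusted p = 0.0997 in edgeR) was 0.16 without it. Fzd7 showed the same single high library, with 8.77, 6.51 and 6.86 CPM against 15.9, 8.93 and 7.63 CPM, and its log2 fold change of 0.55 (unadjusted p = 0.107 in edgeR) was 0.17 without that library.

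Fzd1 had 8.74, 5.26 and 8.16 CPM against 14.7, 7.42 and 9.16 CPM (log2 fold change 0.50, and 0.17 without Snhg11-ASO replicate 1). Fzd4, the receptor for norrin in blood vessels, had 17.4, 7.88 and 12.7 CPM against 26.6, 9.52 and 10.4 CPM, and its log2 fold change of 0.29 was -0.34 without that library. Control-ASO replicate 2, the sample with the lowest choroid plexus sum (197.9 CPM), was also the lowest sample for Fzd1, Fzd4 and Fzd7. Snhg11-ASO replicate 3 had a low sum as well (240.7 CPM) and was the lowest sample for none of them. A part of the choroid plexus in these values was not tested. With the choroid plexus level as a term, added after seeing the data, the log2 fold changes were 0.68 for Fzd1, 0.53 for Fzd4 and 0.65 for Fzd7 (unadjusted p = 0.00900, 0.0488 and 0.0227, adjusted p = 0.449, 0.498 and 0.481 in edgeR with Benjamini-Hochberg adjustment). The replicate block gave 0.47 for Fzd1 and 0.49 for Fzd7 (unadjusted p = 0.0439 and 0.0477). Fzd2 went the other way, with 4.79, 2.76 and 3.89 CPM against 1.60, 2.49 and 3.37 CPM (log2 fold change -0.62, unadjusted p = 0.113 in edgeR). Fzd6, Fzd8, Fzd9 and Fzd10 had log2 fold changes of -0.00, -0.09, -0.26 and 0.04. Of the Fzd8 reads 15.6% lay on the opposite strand.

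Of the 5 co-receptors 2 were lower and 3 higher, and their median log2 fold change was 0.00. Lrp6, which carries the Wnt signal into the cell together with Frizzled, stood at 7.05 ± 0.249 RPKM (SD, n = 3) and Ryk, a Wnt-binding pseudokinase, at 6.98 ± 0.620, with overlapping ranges. Lrp6 was counted at 100.4, 94.7 and 94.3 CPM in the Control-ASO and at 107.5, 97.8 and 90.7 CPM in the Snhg11-ASO mice. Its groups overlapped, and the log2 fold change was 0.03 (SE 0.09, interval -0.19 to 0.25, unadjusted p = 0.735 in edgeR). Ryk had a log2 fold change of 0.00 and Lrp5, at 0.732 RPKM, of 0.25.

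Ror1, a receptor tyrosine kinase that binds Wnt5a, was counted at 7.00, 9.33 and 8.07 CPM in the Control-ASO and at 6.95, 6.87 and 6.73 CPM in the Snhg11-ASO mice. The groups did not overlap, but the lowest Control-ASO value and the highest Snhg11-ASO value differed by little. Its log2 fold change was -0.25 (SE 0.16, interval -0.63 to 0.13, unadjusted p = 0.168 in edgeR). Ror1 lies on chromosome 4, plus strand, from 100095791 to 100444765, a span of 349 kb. After removal of each sample's trend of level with genomic span its log2 fold change was -0.06, and -0.05 with the replicate block in the same fit. Ror2, its relative, was near the limit of the data at 0.816, 0.149 and 0.623 CPM against 0.420, 0.407 and 0.298 CPM, from 5 to 24 counts. Control-ASO replicate 2 was the lowest sample, and the log2 fold change of -0.49 (SE 0.57, interval -1.85 to 0.87, unadjusted p = 0.424 in edgeR) was -0.94 without it and 0.07 with the choroid plexus level as a term.

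Receptor turnover is set by the ubiquitin ligases Rnf43 and Znrf3, which remove Frizzled from the surface, and by the R-spondin receptors Lgr4 and Lgr5, which counter them. Lgr4 was the most abundant at 7.11 ± 0.501 RPKM (SD, n = 3). The values of Lgr4 were 43.9, 43.2 and 38.5 CPM in the Control-ASO and 37.0, 40.3 and 41.6 CPM in the Snhg11-ASO mice, and the groups overlapped (log2 fold change -0.08, SE 0.10, interval -0.32 to 0.16, unadjusted p = 0.462 in edgeR). Lgr5, also a Wnt target and a marker of stem cells in other tissues, lies on the minus strand of chromosome 10, from 115450311 to 115587780. Its values were 1.29, 1.19 and 1.19 CPM in the Control-ASO and 0.734, 0.861 and 1.01 CPM in the Snhg11-ASO mice, from 28 to 44 counts each. All Snhg11-ASO mice lay below all Control-ASO mice, and the log2 fold change was -0.49 (SE 0.25, interval -1.09 to 0.11, unadjusted p = 0.0930, adjusted p = 0.672 in edgeR with Benjamini-Hochberg adjustment). Of its reads 10.7% lay on the opposite strand, and with both strands counted the log2 fold change was -0.25. Znrf3 had 21.6, 17.7 and 15.0 CPM against 29.7, 16.3 and 13.8 CPM, and its log2 fold change of 0.14 was -0.26 without Snhg11-ASO replicate 1. Rnf43 had a log2 fold change of 0.25 at 0.615 RPKM.

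**Figure D3:**
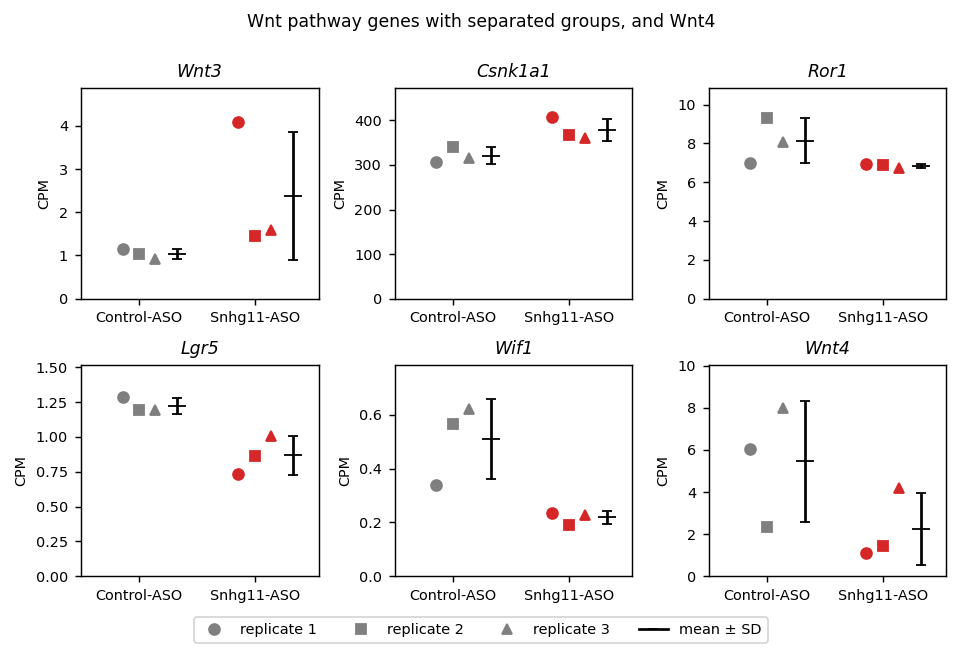
CPM in each mouse (marker shape by replicate number) with the group mean ± SD (n = 3) for the 5 genes whose groups did not overlap, and for Wnt4, the gene with the largest difference. Snhg11-ASO replicate 1 lies apart from its group for Wnt3 (4.09 CPM), and the Wnt4 groups overlap.

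The 3 Dishevelled genes, which relay the signal from Frizzled, had log2 fold changes between -0.07 and 0.11. Dvl1 led at 12.5 ± 0.273 RPKM (SD, n = 3) and was among the steadiest members. Dvl1 had 60.7, 63.0 and 63.2 CPM in the Control-ASO and 68.1, 63.1 and 62.9 CPM in the Snhg11-ASO mice (log2 fold change 0.06, SE 0.08, interval -0.14 to 0.25, unadjusted p = 0.517 in edgeR). Dvl3 had 18.4, 16.4 and 16.0 CPM against 23.6, 17.0 and 14.3 CPM. The highest and the lowest of these values were both in the Snhg11-ASO group, and the log2 fold change of 0.11 (SE 0.20, interval -0.35 to 0.58, unadjusted p = 0.590 in edgeR) was -0.11 without replicate 1. Dvl2 (log2 fold change -0.07) is less certain, since 55.1% of the reads on it came from the opposite strand, where Acadvl overlaps it.

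β-Catenin and its destruction complex formed the most abundant role. With all samples, 6 of its 7 genes had a higher mean in Snhg11-ASO mice, by small amounts (median log2 fold change 0.05), against 10316 of all 19969 genes. All 7 intervals lay within a doubling or halving. Without Snhg11-ASO replicate 1, Apc (-0.06) and Gsk3b (-0.13) were lower, as was Axin2 (-0.17). Ctnnb1, Csnk1a1, Gsk3a and Axin1 stayed higher (0.18, 0.18, 0.08 and 0.04). Ctnnb1, on the plus strand of chromosome 9 from 120929216 to 120960507, was counted at 369.1, 388 and 410.8 CPM in the Control-ASO and at 369.7, 423.5 and 455 CPM in the Snhg11-ASO mice. The groups overlapped, and the log2 fold change was 0.10 (SE 0.11, interval -0.16 to 0.35, unadjusted p = 0.406 in edgeR). These are RNA levels, and β-catenin is regulated chiefly through the stability of the protein. Gsk3b, a kinase of the complex, had 187.1, 188.4 and 185.4 CPM in the Control-ASO and 221.3, 172.2 and 168.8 CPM in the Snhg11-ASO mice. The tight Control-ASO values lay between those of the Snhg11-ASO mice, and the log2 fold change was 0.00 (SE 0.12, interval -0.28 to 0.29, unadjusted p = 0.979 in edgeR), or -0.13 without replicate 1.

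Csnk1a1, which encodes casein kinase 1α, the kinase that primes β-catenin for Gsk3, was the member of this role with separated groups. Levels of the gene were 305.9, 341.2 and 315.9 CPM in the Control-ASO and 406.5, 367.5 and 361.3 CPM in the Snhg11-ASO mice. All Snhg11-ASO mice lay above all Control-ASO mice, with means of 321 ± 18.2 and 378.4 ± 24.5 CPM (SD, n = 3 each). Its difference on the log2 scale was 0.24 (SE 0.09, interval 0.01 to 0.46, unadjusted p = 0.0404, adjusted p = 0.592 in edgeR with Benjamini-Hochberg adjustment). It stayed between 0.18 and 0.28 when each sample was left out, and the unadjusted p of edgeR was then under 0.05 without Control-ASO replicate 2 (0.0410) and between 0.0516 and 0.125 without each of the others. DESeq2 gave 0.0450, 0.0726 and 0.0475 without Snhg11-ASO replicates 1, 2 and 3. Axin1, a scaffold of the complex, had 24.7, 22.3 and 21.6 CPM against 35.8, 24.0 and 22.9 CPM, with replicate 1 again the high value. Its log2 fold change of 0.27 (SE 0.19, interval -0.18 to 0.71, unadjusted p = 0.198 in edgeR) was 0.04 without that mouse.

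Axin2, a second scaffold whose gene is itself switched on by β-catenin, was the gene of this role with a lower mean in the comparison of all samples. It lies on chromosome 11, plus strand, from 108920349 to 108950783. The gene had 21.9, 17.7 and 18.1 CPM in the Control-ASO and 15.2, 16.3 and 18.0 CPM in the Snhg11-ASO mice, and the groups overlapped. The difference (log2) was -0.22 (SE 0.14, interval -0.55 to 0.10, unadjusted p = 0.146, adjusted p = 0.710 in edgeR with Benjamini-Hochberg adjustment). A drop by 1 or more on the log2 scale, or a rise beyond 0.10, lies outside that interval. Apc and Gsk3a had log2 fold changes of 0.05 and 0.03, and Apc ranged from 410.5 to 546.2 CPM over the Snhg11-ASO mice against 455.7 to 472 CPM over the Control-ASO mice.

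**Figure D4:**
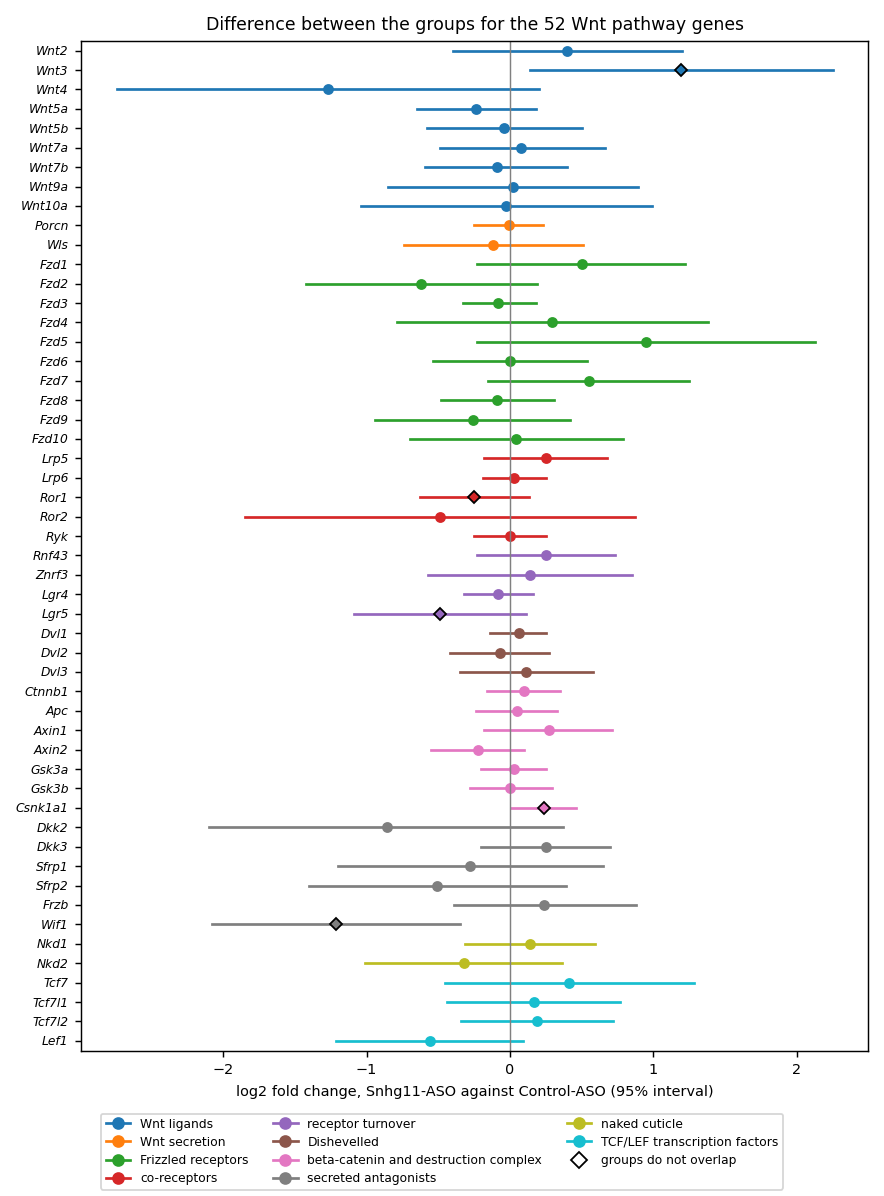
Log2 fold change of Snhg11-ASO against Control-ASO for the 52 Wnt pathway genes with 95% intervals, by role, from edgeR. Diamonds mark the 5 genes whose groups did not overlap, and the intervals of Wnt3, Csnk1a1 and Wif1 leave out 0.

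The secreted antagonists had the lowest median of the roles (-0.39), with 4 of 6 genes lower and none past the threshold. At an unadjusted p under 0.05 edgeR had 1 of them (16.7%, against 8.11% of all genes). Levels within the role differed widely. Of the lower genes, Wif1, Dkk2 and Sfrp2 were under 1 CPM in every mouse, while the most abundant, Dkk3 and Frzb, were higher. Dkk3, a divergent member of the Dickkopf family that is abundant in hippocampal neurons, was counted at 213.5, 291.5 and 298 CPM in the Control-ASO and at 244.7, 347.7 and 361.3 CPM in the Snhg11-ASO mice. Replicate 1 was the low sample in both groups. Its log2 fold change was 0.25 (SE 0.19, interval -0.20 to 0.70, unadjusted p = 0.236 in edgeR). The Snhg11-ASO value was the higher in each of the 3 pairs that share a replicate number, and with the replicate block the log2 fold change was 0.24 (unadjusted p = 0.0288, adjusted p = 0.537). Without Snhg11-ASO replicate 1 it was 0.41 (unadjusted p = 0.0354), and with the choroid plexus term 0.13 (unadjusted p = 0.430).

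Wif1, a secreted factor that binds Wnt proteins directly, had the lowest p of all members and one of their lowest levels (0.210 ± 0.0617 RPKM, SD, n = 3). The gene (ENSMUSG00000020218) spans chromosome 10 from 121033960 to 121100650 on the plus strand, and its promoter window is shown above. The 3 Control-ASO mice had 0.340, 0.565 and 0.623 CPM, from 10, 19 and 21 counts. In the Snhg11-ASO mice it was counted at 0.236, 0.191 and 0.229 CPM, from 9, 8 and 10 counts. All Snhg11-ASO mice lay below all Control-ASO mice. Its difference on the log2 scale was -1.21 (SE 0.36, interval -2.08 to -0.35, unadjusted p = 0.0127, adjusted p = 0.527 in edgeR with Benjamini-Hochberg adjustment). It ran from -1.44 to -1.05 when each sample was left out, and the unadjusted p of edgeR rose above 0.05 without Control-ASO replicate 3 (0.0561) or Snhg11-ASO replicate 2 (0.0506). DESeq2 gave unadjusted p = 0.0490 and no adjusted p for it, and unadjusted p = 0.0757, 0.152 and 0.121 without Snhg11-ASO replicates 1, 2 and 3. The difference rests on 50 counts in the Control-ASO and 27 in the Snhg11-ASO mice in all.

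Frzb, also known as sFRP3 and expressed in the dentate gyrus, had 18.2, 14.3 and 8.67 CPM against 14.7, 18.9 and 15.1 CPM (log2 fold change 0.24). Sfrp1 had 5.17, 3.36 and 6.29 CPM against 6.40, 3.01 and 2.82 CPM, and its log2 fold change of -0.28 was -0.76 (unadjusted p = 0.0333 in edgeR) without Snhg11-ASO replicate 1. Dkk2 and Sfrp2 were both under 1 CPM in every mouse, with log2 fold changes of -0.86 and -0.51, and 37.4% of the reads on Sfrp2 lay on the opposite strand. The naked cuticle genes, intracellular antagonists that bind Dishevelled, went in opposite directions. Nkd1 had 5.03, 4.73 and 4.51 CPM against 4.51, 6.20 and 4.99 CPM (log2 fold change 0.14, SE 0.19, interval -0.31 to 0.59, unadjusted p = 0.490 in edgeR). Nkd2 had 5.54, 3.92 and 3.65 CPM against 2.83, 4.74 and 2.91 CPM (log2 fold change -0.32, SE 0.29, interval -1.01 to 0.36, unadjusted p = 0.302 in edgeR). Groups overlapped for both.

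The TCF/LEF factors, the nuclear end of the pathway, were scarce, at 0.219 (Tcf7l1) to 0.543 RPKM (Lef1). Lef1, on the plus strand of chromosome 3 from 131110471 to 131224356, was counted at 6.36, 3.24 and 4.72 CPM in the Control-ASO and at 2.96, 3.35 and 3.39 CPM in the Snhg11-ASO mice. Control-ASO replicate 2 lay within the Snhg11-ASO range and the other Control-ASO mice above it. The difference (log2) was -0.56 (SE 0.27, interval -1.21 to 0.09, unadjusted p = 0.0800, adjusted p = 0.660 in edgeR with Benjamini-Hochberg adjustment). It was -0.31 without Control-ASO replicate 1 (unadjusted p = 0.290 in edgeR) and -0.77 without Control-ASO replicate 2 (unadjusted p = 0.0183). The summed meningeal markers were likewise high in Control-ASO replicates 1 and 3 and low in the other 4 mice, and their part in this difference was not tested.

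Tcf7l2, the factor prominent in the thalamus, was counted at 3.57, 2.68 and 2.88 CPM in the Control-ASO and at 4.09, 3.06 and 3.25 CPM in the Snhg11-ASO mice. Groups overlapped (log2 fold change 0.19, SE 0.22, interval -0.34 to 0.72, unadjusted p = 0.424 in edgeR), and the 12 thalamic markers summed to 178 to 234.2 CPM in the Control-ASO and 196.2 to 245.4 CPM in the Snhg11-ASO mice. Tcf7 had 1.22, 0.773 and 1.19 CPM against 2.07, 1.05 and 1.12 CPM. Its log2 fold change of 0.41 (SE 0.37, interval -0.45 to 1.28, unadjusted p = 0.296 in edgeR) was 0.04 without Snhg11-ASO replicate 1, and 43.0% of its reads came from the opposite strand. Tcf7l1, which acts mainly as a repressor, had a log2 fold change of 0.17.

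A further 64 genes of the pathway outside the 52 were listed, of which 55 passed the filter. Of these 28 were lower and 27 higher in Snhg11-ASO mice (median log2 fold change -0.01). None passed an adjusted p of 0.05 in edgeR, 3 had an unadjusted p under 0.05 (5.45%, against 8.11% of all genes) and 5 had groups apart (9.09%, against 15.4%). Tle2, a corepressor that binds TCF/LEF factors, had 11.8, 7.82 and 8.04 CPM against 4.20, 6.03 and 5.02 CPM (log2 fold change -0.86, SE 0.23, unadjusted p = 0.00778, adjusted p = 0.492 in edgeR with Benjamini-Hochberg adjustment). Kremen1, a receptor for Dickkopf proteins, had 17.4, 18.6 and 15.3 CPM against 35.3, 21.3 and 20.9 CPM (log2 fold change 0.60, SE 0.23, unadjusted p = 0.0332 in edgeR). For both, the groups did not overlap. Without Snhg11-ASO replicate 1 the log2 fold change was -0.74 for Tle2 and 0.30 for Kremen1 (unadjusted p = 0.0138 and 0.0274). Rspo2, a ligand of Lgr4 and Lgr5 that enhances Wnt signals, had 17.9, 8.74 and 24.7 CPM against 8.34, 11.1 and 8.52 CPM (log2 fold change -0.88, SE 0.36, unadjusted p = 0.0432 in edgeR), with Control-ASO replicate 2 inside the Snhg11-ASO range. The log2 fold change of Rspo2 was -0.52 without Control-ASO replicate 3 (unadjusted p = 0.167) and -0.78 with the replicate block (unadjusted p = 0.0899). It was -1.20 without Control-ASO replicate 2 (unadjusted p = 0.00155 in edgeR), and DESeq2 with all samples gave unadjusted p = 0.0169.

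Of 17 genes known as transcriptional targets of the pathway, 7 of them also members, 15 passed the filter. Among these 6 were lower and 9 higher, with a median log2 fold change of 0.14 and 0 past an adjusted p of 0.05 in edgeR. Cd44, a cell surface receptor that glia and other cells also raise in injury, was the single target with an unadjusted p under 0.05 (6.67% of 15, against 8.11% of all genes). Cd44 had 19.2, 17.7 and 16.5 CPM in the Control-ASO and 200.3, 34.0 and 43.4 CPM in the Snhg11-ASO mice (log2 fold change 2.38, SE 0.67, unadjusted p = 0.00944, adjusted p = 0.498 in edgeR with Benjamini-Hochberg adjustment). All Snhg11-ASO mice lay above the Control-ASO mice, replicate 1 by the most, and without that library the log2 fold change was 1.12 (unadjusted p = 8.7e-05, adjusted p = 0.173 in edgeR). DESeq2 gave Cd44 an adjusted p of 0.111 with all samples, and 4.9e-09, 4.6e-05 and 0.0821 without Snhg11-ASO replicates 1, 2 and 3. Myc had 1.90, 2.59 and 2.43 CPM against 10.5, 3.28 and 2.31 CPM, again with replicate 1 highest (log2 fold change 1.22, unadjusted p = 0.0681 in edgeR), and its log2 fold change was 0.27 without that library (unadjusted p = 0.301). Ccnd1, a cyclin of the G1 phase, had 32.3, 32.3 and 17.8 CPM against 28.7, 44.8 and 44.5 CPM (log2 fold change 0.52, unadjusted p = 0.0999 in edgeR, and 0.70 with unadjusted p = 0.0260 without Snhg11-ASO replicate 1). Axin2, Lef1, Lgr5 and Notum were lower in mean by 0.22, 0.56, 0.49 and 0.24 on the log2 scale, and Tcf7, Nkd1, Rnf43 and Znrf3 were higher by 0.41, 0.14, 0.25 and 0.14.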

How the data were processed

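Total RNA of the dorsal hippocampus of 3 Control-ASO and 3 Snhg11-ASO mice was made into stranded, ribosome-depleted libraries and sequenced in pairs of 50 bases. Per the labels, the authors aligned reads with STAR 2.5.2a to mm10 (GRCm38), and they deposited raw counts of read pairs per gene, without normalization or pooling. The paper names Rsubread for counting, while the deposited counts have the layout of STAR, and the authors' annotation release is not given in the sources used here. Lines that name no gene held 43.5% to 51.4% of pairs and were left out. Read pairs shared by several genes or places are not counted, and intervals cover no systematic error of this kind.

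Reverse-strand counts (96.2% to 96.8% of stranded counts) were used. Names, positions and exon lengths came from GENCODE M21, which matched 55141 of 55401 identifiers. Genes were filtered with filterByExpr (minimum count 10), scaled with TMM factors (0.982 to 1.02) and tested with edgeR 4.0.16 under R 4.3.3 (quasi-likelihood, two-sided), with p-values adjusted after Benjamini-Hochberg over 19969 genes and a threshold of 0.05. The common biological coefficient of variation was 0.266. CPM are scaled by TMM. RPKM divide CPM by merged exon length. A member was given in full if it was the most abundant of its role, had an unadjusted p under 0.05 or groups that did not overlap, had the largest difference of its role, or was Ctnnb1, Axin2, Lef1, Tcf7l2, Gsk3b, Wnt5a or Wnt7b. Other members given by sample were chosen after their values were seen. The members and gene lists were chosen with earlier results of these data known.

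Samples that share a replicate number deviated together (correlations of 0.297, 0.179 and 0.103 across genes, each above 0.1). Of the pairs with unlike numbers, Control-ASO replicate 2 and Snhg11-ASO replicate 3 reached 0.188, and the others ran from -0.285 to -0.006. The values therefore do not settle whether the number pairs samples, and no source says what a shared number marks. The replicate block was an alternative and not part of the main fit. The paper removed 1 Snhg11-ASO sample that it does not name, and here no sample was removed. Alternatives were DESeq2 1.42.0, its size factors in edgeR, no filter, both strands, the replicate block, a correction for genomic span, each sample left out and, added after seeing the data, the choroid plexus level as a term. The fits were also run on simulated counts without an outlying library, so those runs do not cover a sample that stands apart.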

Additional observations from a re-analysis of the deposited data

How the results depend on the processing

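The direction of 30 of the 52 members was kept in all 17 alternatives, and 22 turned in at least 1. In edgeR 0 genes passed an adjusted p of 0.05, and leaving out each sample gave 0 to 2. DESeq2 called 258, and 347, 275 or 223 without Snhg11-ASO replicate 1, 2 or 3. Over all alternatives 1 of the 52 members was called, Wnt4, in DESeq2 without Snhg11-ASO replicate 3. The count of members at an unadjusted p under 0.05 was 6 (11.5%) with the replicate block, against 8.59% of all genes, 5 (9.62%) with the span correction and the replicate block together, against 7.89%, 5 (9.62%) with the choroid plexus term, against 9.97%, 6 (11.5%) in DESeq2 without Snhg11-ASO replicate 3, against 9.51%, and 0 to 6 (0% to 11.5%) when each sample was left out, against 4.36% to 9.94%. The block changed no call at an adjusted p of 0.05. Separated members numbered 9 to 16 (17.3% to 30.8%) when each sample was left out, against 22.7% to 28.3% of all genes. Fewer samples make separation easier. In DESeq2's scaling without Snhg11-ASO replicates 1, 2 and 3 separated members numbered 9, 9 and 17. Those counts are 17.3%, 17.3% and 32.7% of the members, against 28.3%, 24.3% and 25.1% of all genes. The members' median was 0.01, ran from -0.03 to 0.03 when each sample was left out, and was -0.03 in DESeq2 without Snhg11-ASO replicate 1. The log2 fold change of Snhg11 was -2.12 in DESeq2 with all samples and -2.57, -1.94 and -1.96 without Snhg11-ASO replicates 1, 2 and 3, past an adjusted p of 0.05 each time. Small differences turned with single samples, and the cause was not tested. When each sample was left out the log2 fold change ran from -0.23 to 0.09 for Wnt7b, -0.06 to 0.05 for Porcn, -0.31 to 0.12 for Wls, -0.15 to 0.02 for Fzd3, -0.03 to 0.09 for Lrp6, -0.11 to 0.26 for Dvl3, -0.13 to 0.07 for Gsk3b and -0.00 to 0.23 for Nkd1. DESeq2 without Snhg11-ASO replicate 1 gave 0.09 for Wnt7b, 0.12 for Wls, -0.04 for Lrp6, -0.12 for Dvl3 and -0.14 for Gsk3b, and without Snhg11-ASO replicate 3 gave 0.05 for Porcn. Gsk3b was -0.01 with no filter and -0.01 with the replicate block, and Ror2 was 0.07 with the choroid plexus term. Depth limits the scarce members most: 9 of the 52 had a mean under 50 counts per sample.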
